A study of Mus musculus with 9 samples.

Results

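A set of 10 imprinted genes of fetal growth was measured in cells grown from mouse pancreatic tumors. They were taken by symbol, and all 10 of 10 were found among the 18049 genes of the deposited table: the ligand Igf2 and its neighbour H19, the receptor Igf2r, Dlk1 and Meg3, Peg3, Mest, Plagl1, Cdkn1c and Grb10. The cells, called MPC, are 9 clones grown from tumors of WTg mice, all in a single condition and each measured by bulk RNA-sequencing. WTg mice, a cross of the FVB/N line called EL1 with Mettl3 transgenic mice made from BL/6 eggs, carry EL1-Luc/EL1-Tag (luciferase and SV40 large T antigen, each driven by the promoter of pancreatic elastase I) and also CAG-Mettl3, a Mettl3 open reading frame under the ubiquitous CAG promoter. Each library is 1 clone, picked as a separate colony and kept in DMEM with 10% serum. How many mice gave the clones, and their age, are not given. The paper reports that no clones were obtained from EL1 mice, so there were none without CAG-Mettl3 to compare. The labels give the source as pancreas, the cell type as fibroblasts and the treatment as none, although a protocol field names the PLK1 inhibitor NMS-P937.

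Imprinted genes are expressed mainly from the copy inherited from 1 parent, and they lie in clusters governed by control regions whose DNA is methylated on a single parental copy. Many of them set the growth of the fetus and placenta. Igf2, Dlk1, Peg3, Mest and Plagl1 are paternally expressed, and several of these favour growth. H19, Igf2r, Meg3, Cdkn1c and, in most tissues, Grb10 are maternally expressed, and several of these restrain growth. Many members are silenced after birth in most tissues. Neither the parental copy in use nor DNA methylation was measured in these libraries.

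Levels are given as normalized counts, that is, read counts scaled by a single factor per library. Each library held between 12198036 and 20453901 reads, and 3 reads, taken as the floor of detection, corresponded to between 3.79 and 6.56 normalized counts. The column names of the deposited table begin with 3 different prefixes, whose meaning is not stated, and libraries are called by them here: A (1 library), B1 to B4 and C1 to C4. All 14 fibroblast markers were above the floor in every library (1.71% to 4.44% of normalized counts), and so were all 14 macrophage markers (2.18% to 3.39%). Epcam, which defines epithelial cells, was at 0 in all 9 libraries, but 2 of the 5 epithelial markers were above the floor in every library (sum of the 5, 20.3 to 188 normalized counts), and 1 of 6 acinar markers was above the floor in every library. The summed acinar markers reached 2415 normalized counts in C3 and 144 to 396 in the others. Xist was at 29664 to 32912 normalized counts in the 4 B libraries and at most 8.39 in the others. Ddx3y, on the Y chromosome, was at 0 in the B libraries, 2444 in A and 2376 to 2720 in the C libraries. The B clones thus came from other mice than the A and C clones. Sex, mouse of origin and prefix therefore cannot be told apart between B and C. In such bulk samples, fewer cells of a type and less RNA per cell cannot be told apart either.

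The 10 members fell into genes far above the floor and genes close to it. Igf2r, Meg3 and Grb10 each had at least 1866 reads in every library. Peg3 ranged from 12 to 1219 reads, whereas Plagl1 and Cdkn1c never had more than 55. Igf2, H19, Dlk1 and Mest never had more than 18. In all, 6 of the 10 members were above 3 reads in every library, against 74.98% of the 18049 genes. No exonic lengths were at hand, so levels of different genes were not ranked against each other, and only their reads against the floor are set side by side. The plot of members by library shows both sets.

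**Figure D1:**
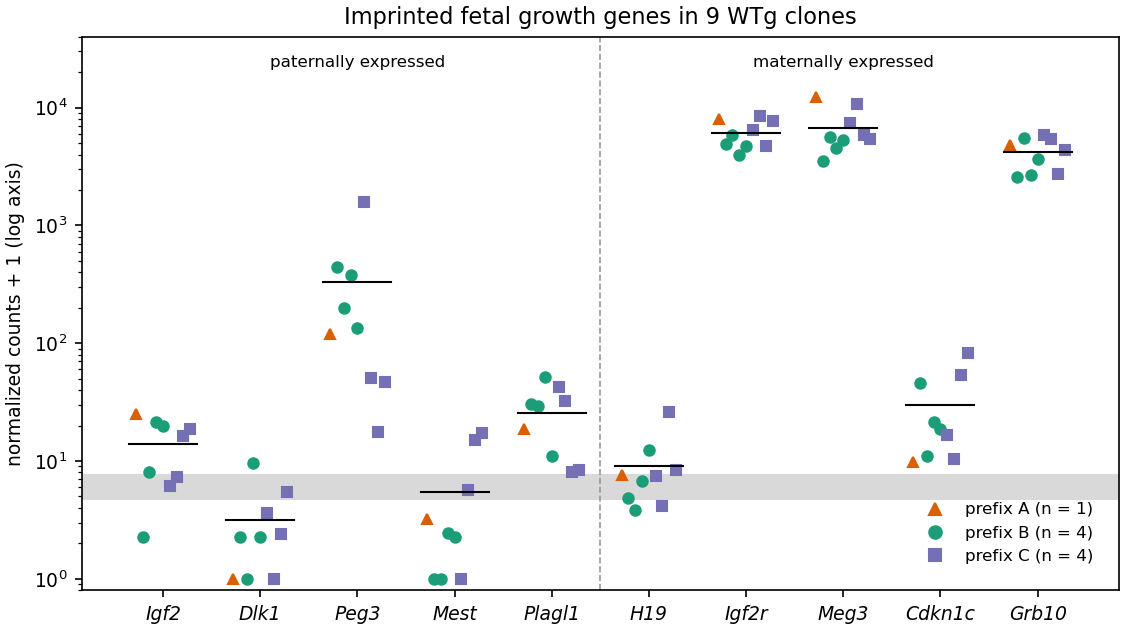
Normalized counts plus 1 (log axis) of the 10 imprinted fetal growth genes, grouped by the parental copy they are known to be expressed from, with 1 point per WTg clone coloured by column-name prefix and a black line at the mean over 9 clones. The grey band spans the 3-read floor of the libraries, and most points of Dlk1, Mest and H19 lie in it or under it while Igf2r, Meg3 and Grb10 had at least 1866 reads in each. The floor differs by library, so a point in the band can be above its own floor, as some of H19 are.

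In the IGF2 axis the ligand was near the floor, whereas its receptor genes Igf2r, Igf1r and Insr had at least 519 reads in every clone. Igf2, the paternally expressed growth factor of the fetus, lies on chr7:142650768-142666816 in GRCm38 (ENSMUSG00000048583). Its level was 24.1 normalized counts in A, 1.27 in B1, 7.12 in B2, 20.3 in B3, 18.9 in B4, 5.17 in C1, 6.24 in C2, 15.4 in C3 and 17.7 in C4, with a mean of 12.9 ± 8.04 (SD, n = 9). These are between 1 and 15 reads, and Igf2 was above 3 reads in 8 of 9 libraries. The values of prefixes B and C overlapped, and the 95% Poisson interval of the lowest (0.0322 to 7.09 in B1) did not reach that of the highest (12.02 to 43.1 in A). Such intervals, like the floor, cover counting error only.

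H19, a maternally expressed noncoding RNA that shares enhancers with Igf2, lies beside it on chr7:142575530-142578146 (ENSMUSG00000000031). It was at 6.56 normalized counts in A, 3.82 in B1, 2.85 in B2, 5.79 in B3, 11.4 in B4, 6.47 in C1, 3.12 in C2, 25.2 in C3 and 7.38 in C4 (8.06 ± 6.93, SD, n = 9). H19 was above 3 reads in 5 of 9 libraries. The 18 reads of C3 stood apart from the other 8 libraries, which had 2 to 9. C3 is also the library with the highest sum of acinar markers, and the part of that sum in the H19 value was not tested. Igf2 and H19 showed no association that passed the test (Pearson's r = 0.518 with p = 0.156 and Spearman's rho = 0.450 with p = 0.230, exact two-sided permutation test over 9 clones, adjusted p = 0.313 and 0.460 over 4 relations). Without the 2 clones farthest from the median Igf2, r was 0.562, and centred within prefixes B and C it was 0.560.

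Igf2r is the maternally expressed receptor that carries IGF2 and mannose 6-phosphate proteins to lysosomes and so clears the ligand (chr17:12682406-12769706, ENSMUSG00000023830). It was at 8075 normalized counts in A, 4939.8 in B1, 5843 in B2, 3933 in B3, 4751 in B4, 6464 in C1, 8485 in C2, 4709 in C3 and 7732 in C4 (6103 ± 1668, SD, n = 9). The highest library was 2.16 times the lowest. Libraries A, C2 and C4 were the highest, and the ranges of B and C overlapped through C3. Its paternally expressed antisense RNA, Airn, was above the floor in every library, at 27.5 to 81.2 normalized counts. How strand was handled in counting is not stated, so reads of Igf2r and Airn may not be fully separated. The ratio of Airn to Igf2r within a library lay between 0.00699 and 0.0105.

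Across clones, Igf2 did not follow its clearance receptor: r was -0.0029 (p = 0.994) and rho -0.150 (p = 0.708), with adjusted p = 0.994 and 0.776 in the same exact permutation tests. Without the 2 clones farthest from the median, r was -0.292, and centred within prefixes it was -0.351. Igf2 had 15 reads or fewer in each of these clones.

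The genes that act with Igf2 were read from a list of 5. Igf1r, the signalling receptor for IGF1 and IGF2, was at 999.8 to 2646 normalized counts, lowest in B3 and highest in C2. Insr, the insulin receptor, varied little, from 1047 to 1204. Of the IGF2 mRNA-binding proteins, which are readers of m6A, Igf2bp2 was at 438 to 1722 with the highest value in A, Igf2bp3 at 39.2 to 363, and Igf2bp1 at 1.42 to 62.4, above 3 reads in 6 of 9 libraries. Igf2 and Igf2bp2 had r = 0.134 (p = 0.722) and rho = 0.117 (p = 0.776), with adjusted p = 0.963 and 0.776 in the exact permutation test. The sign of r turned without library A (-0.204), without the 2 clones farthest from the median (-0.151) and centred within prefixes (-0.286).

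Grb10, an adaptor that binds the insulin and IGF1 receptors and restrains their signalling, lies on chr11:11930499-12037428 (ENSMUSG00000020176). It was at 4819 normalized counts in A, 2575 in B1, 5545 in B2, 2700.0 in B3, 3693 in B4, 5831 in C1, 5404 in C2, 2714 in C3 and 4349 in C4 (4181 ± 1308, SD, n = 9). B1, B3 and C3 were the 3 lowest and lay close together. The receptor Igf2r and the adaptor Grb10 had r = 0.770 across the 9 clones, at rank 502 among 12300 genes for Grb10, which is a description and not a test.

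Cdkn1c encodes p57, an inhibitor of cyclin-dependent kinases that limits proliferation in the embryo (chr7:143458339-143461059, ENSMUSG00000037664). It was at 8.75 normalized counts in A, 44.5 in B1, 9.97 in B2, 20.3 in B3, 17.7 in B4, 15.5 in C1, 9.37 in C2, 53.2 in C3 and 81.2 in C4 (28.9 ± 25.2, SD, n = 9). B1, C3 and C4, with 35, 38 and 55 reads, were above the other 6 libraries, which had 4 to 14. The Poisson intervals of C4 (61.2 to 106) and of A (2.38 to 22.4) did not overlap.

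Plagl1 encodes a zinc finger transcription factor, also known as Zac1, that can arrest the cell cycle and has been placed at the centre of a network of imprinted genes (chr10:13090832-13131694, ENSMUSG00000019817). It was at 17.5 normalized counts in A, 29.3 in B1, 28.5 in B2, 50.6 in B3, 10.1 in B4, 41.4 in C1, 31.2 in C2, 6.99 in C3 and 7.38 in C4 (24.8 ± 15.4, SD, n = 9). C3 and C4, with 5 reads each, were the lowest for Plagl1, and they were the highest for Cdkn1c and for Mest. This was seen after the values were read, and no test was made of it.

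Mest, a paternally expressed gene for a hydrolase-like protein of mesoderm (chr6:30733506-30748466, ENSMUSG00000051855), was close to absent. It was at 2.19 normalized counts in A, 0 in B1, 0 in B2, 1.45 in B3, 1.26 in B4, 0 in C1, 4.68 in C2, 14.0 in C3 and 16.2 in C4. C3 and C4, with 10 and 11 reads, were the only libraries above 3 reads, and by the 3-read floor a count of 0 allows up to 3.82 normalized counts in B1, 4.27 in B2 and 3.88 in C1. The acinar sum was 2415 normalized counts in C3 and 177 in C4, and its part in the Mest values was not tested. Copg2, which runs into the end of Mest from the other strand, was at 1039.6 to 1315 normalized counts in all 9 libraries.

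In the Dlk1-Meg3 cluster of chromosome 12, the maternally expressed noncoding RNAs were read in every clone and the paternally expressed Dlk1 was near the floor. Dlk1 encodes a transmembrane protein of the Notch ligand family that holds back adipocyte differentiation (chr12:109452485-109463336, ENSMUSG00000040856). It had 14 reads in the 9 libraries together. It was at 0 normalized counts in A, 1.27 in B1, 0 in B2, 8.68 in B3, 1.26 in B4, 2.59 in C1, 0 in C2, 1.40 in C3 and 4.43 in C4. Only B3, with 6 reads, was above 3 reads, and by the 3-read floor a count of 0 allows up to 6.56 normalized counts in A, 4.27 in B2 and 4.68 in C2.

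Meg3, the noncoding RNA of the maternal copy, which has been linked to p53 activity and growth arrest, lies on chr12:109540996-109571729 (ENSMUSG00000021268). It was at 12205 normalized counts in A, 3504 in B1, 5662 in B2, 4571 in B3, 5277 in B4, 7379.6 in C1, 10792 in C2, 5879.7 in C3 and 5413 in C4 (6742 ± 2908, SD, n = 9). A and C2 stood highest and B1 lowest, 3.48 times apart. Dlk1 and Meg3 showed no association that passed the test (r = -0.560, p = 0.117, and rho = -0.492, p = 0.185, exact permutation test, adjusted p = 0.313 and 0.460). Without the 2 clones farthest from the median Dlk1, r was -0.518.

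The promoter windows of Dlk1 and Meg3 are shown because these neighbours differed so far in reads, Dlk1 near the floor and Meg3 with 2754 reads or more in every library. Each is 300 bases of RefSeq on GRCm38.p6, from 250 bases before a transcription start to 50 after it, with CG dinucleotides in capitals. The first, for Dlk1, is chr12:109452573-109452872 on the plus strand, around a start that RefSeq lists inside the span of the gene, and the second, for the upstream of 2 listed starts of Meg3, is chr12:109540746-109541045 on the plus strand.
Dlk1: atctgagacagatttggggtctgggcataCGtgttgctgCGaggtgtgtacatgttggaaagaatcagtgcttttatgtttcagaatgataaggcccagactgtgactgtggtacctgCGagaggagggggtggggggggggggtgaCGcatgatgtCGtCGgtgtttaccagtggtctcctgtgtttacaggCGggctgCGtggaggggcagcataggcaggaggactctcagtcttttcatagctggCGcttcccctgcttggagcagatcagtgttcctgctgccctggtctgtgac
Meg3: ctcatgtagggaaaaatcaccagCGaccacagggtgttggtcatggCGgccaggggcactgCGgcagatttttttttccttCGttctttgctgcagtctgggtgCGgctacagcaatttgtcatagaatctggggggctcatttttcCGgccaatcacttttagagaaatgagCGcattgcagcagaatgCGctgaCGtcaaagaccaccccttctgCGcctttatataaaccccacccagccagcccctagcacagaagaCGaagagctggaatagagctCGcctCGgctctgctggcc
The Dlk1 window holds 9 CG dinucleotides and the Meg3 window 13, against a median of 7 over 32851 promoter windows, of which 94.6% hold at least 1. The Meg3 window also holds TGACGTCA, the full cAMP response element, starting 57 bases before the start. This palindrome is in 1.79% of all windows. TATAAA starts 25 bases before the Meg3 start, and TATAAA on either strand is in 13.6% of all windows, while the Dlk1 window holds neither motif. The window of the other listed start of Meg3, not shown, holds 1 CG dinucleotide and neither motif. The first base of the Dlk1 span lies before the Dlk1 window. The comparison of the 2 genes therefore depends on the starts chosen. A match is a description of the letters, not a sign of binding.

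Other genes of that cluster were read after their values were seen, apart from Rian, which is named by its mean normalized counts. Rian, a noncoding RNA that hosts small nucleolar RNAs, was at 2280 in B1 to 8709 in A and had a mean of 4839.6 ± 2004 normalized counts (SD, n = 9). Mirg, a microRNA host, was at 62.3 in B1 to 206 in C2. The ratio of Rian to Meg3 within a library lay between 0.636 and 0.832 (CV 10.2%), and that of Mirg to Meg3 varied by 16.3%, while Meg3 itself varied by 43.1%. The 3 maternally expressed RNAs were thus low and high in much the same clones.

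The paternally expressed genes of the cluster did not share 1 level. Rtl1, a retrotransposon-derived gene of the placenta, had no read in any library, although it overlaps Meg3 and Rian. Dio3, which encodes the deiodinase that inactivates thyroid hormone, was above 3 reads in every library. Its level was 131 in A, 70.2 in C2, 35.4 in C4, 31.0 in C1 and 5.05 to 10.1 in the other 5, so that it was highest in the same 2 clones as Meg3. Its ratio to Meg3 was less steady, with a CV of 84.7%. The plot of the cluster shows these 5 genes by library.

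**Figure D2:**
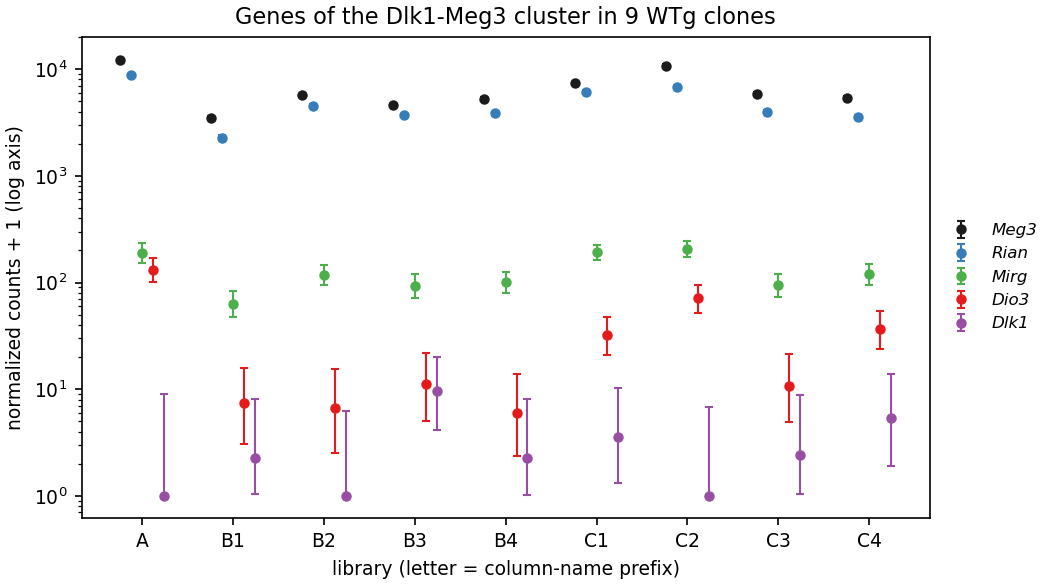
Normalized counts plus 1 (log axis) of 5 genes of the Dlk1-Meg3 cluster in each of the 9 WTg libraries, with 95% Poisson intervals as bars. Meg3, Rian and Mirg are high and low in much the same libraries, Dio3 is highest in A and C2, and Dlk1 stays at or under 8.68 normalized counts.

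Among the members above 3 reads in every clone, Peg3 differed most between clones. It encodes a paternally expressed zinc finger protein involved in growth and maternal behaviour, and lies on chr7:6703892-6730462 (ENSMUSG00000002265). It was at 118 normalized counts in A, 442 in B1, 198 in B2, 375 in B3, 134 in B4, 1577 in C1, 49.9 in C2, 16.8 in C3 and 45.8 in C4 (328 ± 491, SD, n = 9). C1 was 3.57 times the second highest library and 93.9 times the lowest, with Poisson intervals of 1489.5 to 1667.9 in C1 and 8.67 to 29.3 in C3. The other 3 C libraries were the lowest of all, so that the C libraries held both ends of the range and enclosed those of B.

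The Peg3 promoter window is shown for this spread. It is chr7:6730370-6730669 on the minus strand of GRCm38.p6 (RefSeq), written from 5′ to 3′ along the gene, with CG in capitals.
Peg3: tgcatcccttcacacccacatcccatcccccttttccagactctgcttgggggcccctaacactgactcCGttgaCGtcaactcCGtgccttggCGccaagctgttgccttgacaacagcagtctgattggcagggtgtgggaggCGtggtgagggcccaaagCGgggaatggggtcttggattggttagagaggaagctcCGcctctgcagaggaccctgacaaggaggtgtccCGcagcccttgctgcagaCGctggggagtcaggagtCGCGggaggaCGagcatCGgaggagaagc
It holds 13 CG dinucleotides, as does the Meg3 window shown above, and TGACGTCA starts 178 bases before the start. Of the 8 members with an entry, Peg3 and Meg3 were the only ones whose windows hold TGACGTCA.

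The neighbours of Peg3, chosen after their values were seen, only partly followed it. Zim1, a maternally expressed zinc finger gene, was at 388 normalized counts in C1, 276 in A, 125 in B2, 93.7 in C2, 81.2 in C4, 73.8 in B1 and in B3, 12.6 in B4 and 6.99 in C3. It was thus highest in C1 and lowest in C3, as was Peg3, but its ratio to Peg3 ranged from 0.0943 in B4 to 2.33 in A. Usp29, which starts beside Peg3 and is paternally expressed, had 6 reads in C1 (7.76 normalized counts) and was above 3 reads in no other library.

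**Figure D3:**
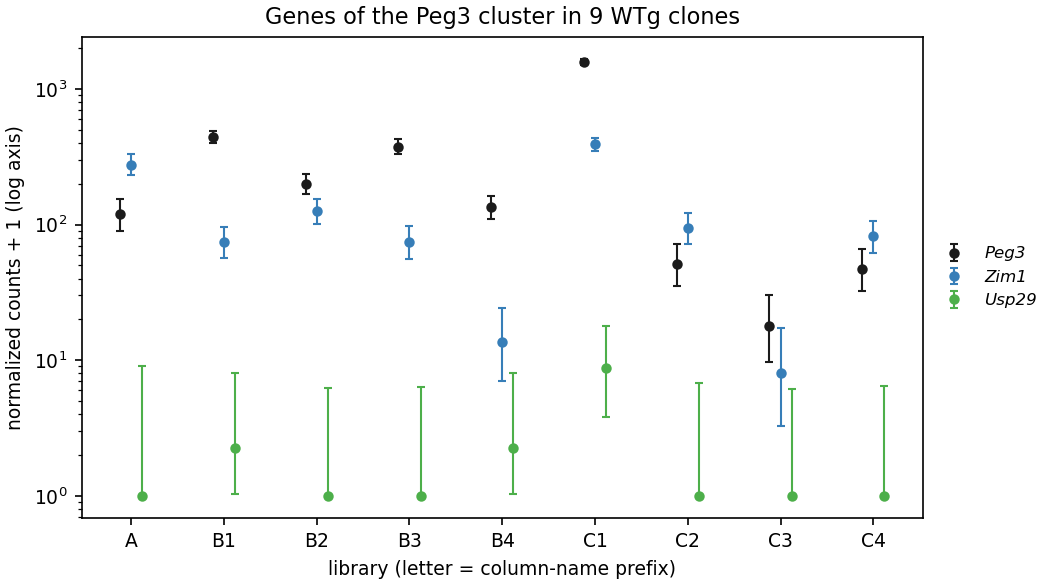
Normalized counts plus 1 (log axis) of Peg3, Zim1 and Usp29 in each of the 9 WTg libraries, with 95% Poisson intervals as bars. Peg3 spans 16.8 in C3 to 1577 in C1, Zim1 is also lowest in C3 and highest in C1, and Usp29 is above 3 reads in C1 alone.

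The spread between clones was set against that of the 14705 genes that averaged 10 normalized counts or more. The median SD of log2(normalized counts + 1) over these was 0.25. It was 1.96 for Peg3, at the 98.1st percentile, and at the 98.6th among the 3783 genes whose mean was within a factor of 2. It was 0.57 for Meg3, 0.48 for Grb10 and 0.40 for Igf2r, at the 94.3rd, 91.8th and 85.5th percentiles of genes of like mean. Cdkn1c (1.13), Igf2 (1.14) and Plagl1 (1.01) were at the 78.6th, 75.1st and 72.1st of theirs, where counting error is larger. All 7 members that could be placed thus varied more than the median gene of like mean. A spread above that median was not confined to the members. The 20 other imprinted genes of such means lay on both sides of it, most of them above, from the 10.3rd percentile for Ube3a to the 96.5th for Zim1.

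**Figure D4:**
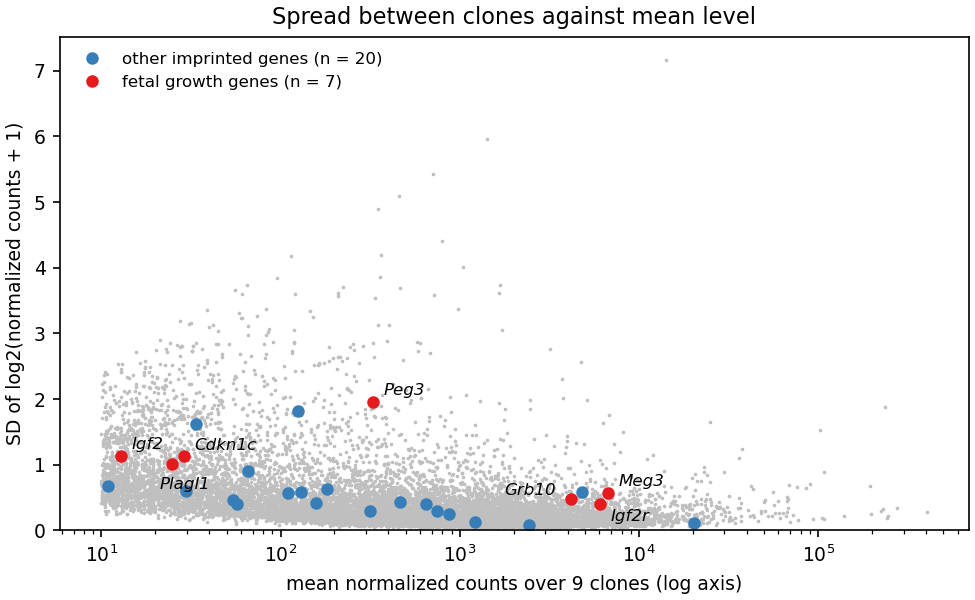
SD of log2(normalized counts + 1) over the 9 WTg clones against the mean level (log axis), with 14705 genes in grey, 7 fetal growth genes in red and 20 other imprinted genes in blue. Peg3 lies far above most genes of its mean level, and Meg3, Grb10 and Igf2r lie above the bulk of the genes of like mean.

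The other imprinted genes were read from a list of 33, of which 28 were in the table. Of these, 19 were above 3 reads in every library, 7 in some and 2 had no read (Rtl1 and Rasgrf1). Those named, by their mean normalized counts with no account of length, were Gnas, Rian, Ube3a, Copg2 and Peg13. Gnas, which encodes a G protein subunit, was at 20354 ± 1668 normalized counts (SD, n = 9), with a CV of 8.19%, and Ube3a, a ubiquitin ligase, at 2421 ± 134, with a CV of 5.52%. Those 2 genes were among the steadier ones of their mean, at the 11.96th and 10.3rd percentiles, unlike Rian at the 94.7th. Peg13, a noncoding RNA, was at 873 ± 149.

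For the 4 members that averaged 50 normalized counts or more, the genes most like them over the 9 clones were found by Pearson's r among 12300 genes. For Igf2r these were Carhsp1 (r = 0.989) and Btbd19 (0.971), for Meg3 Tfdp1 (0.989) and Iars (0.987), for Peg3 Bmper (0.948) and Gnai1 (0.928), and for Grb10 the ribosomal protein gene Rpl24 (0.973). None of the genes named here is an imprinted gene of the lists. Bmper, a regulator of BMP signalling, was at 222 to 2429 normalized counts and, as Peg3, highest in C1. Rian was at rank 17 for Meg3 (r = 0.968), Airn at rank 207 for Igf2r (0.889) and Zim1 at rank 428 for Peg3 (0.608). These values share libraries and scaling, and the top of 12300 values over 9 clones is high by choice, so they carry no p.

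Whether members differed between the prefixes was tested with limma over the 16962 genes that averaged 1 normalized count or more. Between C and B, 28 genes passed an adjusted p of 0.05 (0.165% of those tested), and 0 of the 10 members and 0 of 25 other imprinted genes were among them. At an unadjusted p under 0.05 there were 2 of 10 members, near the 18.6% of all genes, and voom on the recovered reads also called 0. Meg3 was 0.60 higher in C on the log2 scale (SE 0.23, limma adjusted p = 0.228) and Igf2r 0.47 higher (SE 0.19, adjusted p = 0.243). The median log2 difference was 0.41 over the members, 0.33 over the 25 other imprinted genes and -0.017 over all genes. It was positive for 7 of the 10 members and for 20 of the 25 others. The fold of Mest, 12.9 between the prefix means, rested on 2 libraries and did not pass (adjusted p = 0.280). Without C3, 242 genes were called, with no member among them but with Dio3, which was 2.52 higher in C on the log2 scale (SE 0.38, limma adjusted p = 0.039). Dio3 was not called in the main fit or in any other setting of this contrast. C3, at 9.79 normalized counts, was the only C library within the B range of 5.05 to 10.1, which rested on 4 to 7 reads per library.

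Mettl3, the m6A methyltransferase carried as a transgene, was at 2184 normalized counts in A and 468 to 621 in the other 8 libraries, so that A decided any relation with it. With log2 Mettl3 as the covariate in limma, 417 of 16961 genes passed (2.46%), and 0 of the 10 members, 0 of 25 other imprinted genes and 0 of the 5 IGF genes did. At an unadjusted p under 0.05 there were 0 of 10 members, against 14.6% of all genes, and voom on the recovered reads also called 0 members. The member with the smallest p was Meg3, with a slope of 0.44 (SE 0.23, adjusted p = 0.422). Without A its slope was -1.56 and no gene in the table was called by limma, against 1777 at an unadjusted p under 0.05. Igf2bp2, also highest in A, had a slope of 0.61 (SE 0.24, adjusted p = 0.276).

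Clones held markers of both fibroblasts and macrophages, and the ratio of the summed fibroblast to the summed macrophage markers differed between them. It was 0.531 in B3, 0.688 in B1, 0.875 in B2, 0.887 in C4, 0.9501 in B4, 1.13 in C1, 1.37 in C3, 1.46 in A and 2.03 in C2. A single gene, Lyz2, made up much of the macrophage sum, from 287615 of 571261 normalized counts in C3 to 577311 of 884990 in C4. Meg3 was higher in clones with a higher ratio. In limma with the log2 ratio as the covariate, 1165 of 16934 genes passed (6.88%). Meg3 was the only one of the 10 members to do so, with a slope of 0.82 (SE 0.17, adjusted p = 0.031). The unadjusted p was under 0.05 for 3 of 10 members, near the 27.6% of all genes. This fit was added after the data were seen. Each of the 10 members was also set against the ratio by an exact permutation test, whose p-values are unadjusted here. It gave r = 0.843 (p = 0.0047) and rho = 0.883 (p = 0.0031) for Meg3, and r = 0.844 (p = 0.015) without the 2 clones farthest from the median ratio.

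That call depended on single libraries and on the prefixes. Without B1, B2, B3 or C2 the limma adjusted p of Meg3 was 0.086, 0.055, 0.060 and 0.156, and with prefix as a term in the fit it was 0.398, where no gene of the table passed and 1898 had an unadjusted p under 0.05. The slope of Meg3 stayed at 0.70 to 1.02 without each library in turn and was 0.64 with prefix as a term. Centred within prefixes B and C, r was 0.745 (p = 0.075, exact permutation test). Igf2r had a slope of 0.47 (SE 0.16, adjusted p = 0.104) and passed without C3 (adjusted p = 0.029). Dlk1 had r = -0.671 (p = 0.047, exact permutation test), which rests on 14 reads and was -0.231 (p = 0.603) without the 2 farthest clones and -0.884 (p = 0.0052) centred within prefixes B and C. Of the IGF genes, Igf1r passed in limma with a slope of 0.56 (SE 0.14, adjusted p = 0.041), and its adjusted p was 0.055 to 0.211 without B1, B2, B3, C1 or C2 and 0.380 with prefix as a term.

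**Figure D5:**
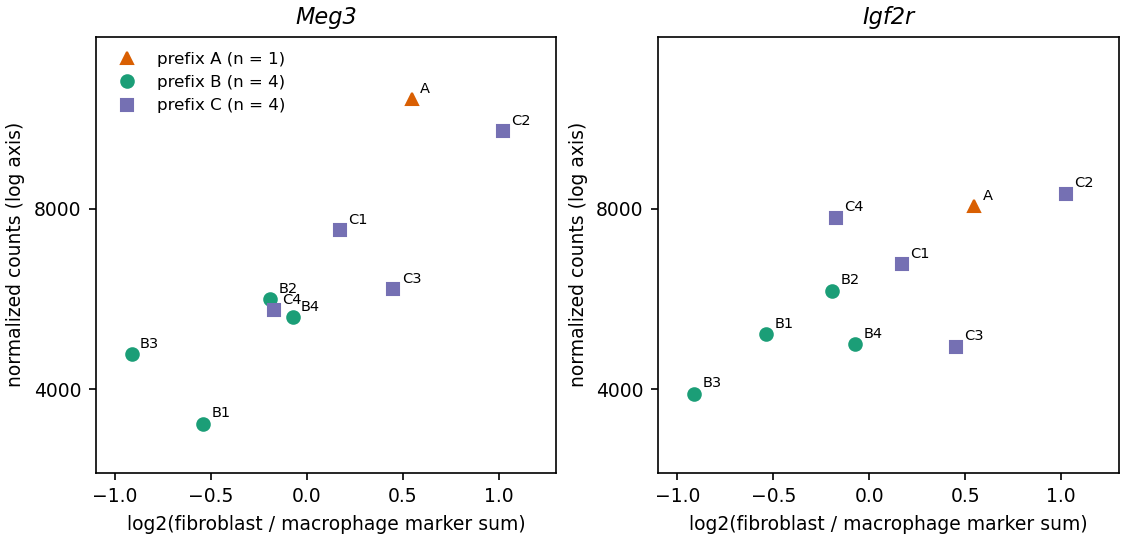
Normalized counts (log axis) of Meg3 and Igf2r against the log2 ratio of summed fibroblast to summed macrophage markers, with 1 point per WTg clone. Meg3 is highest in A and C2 and lowest in B1 and B3, and 3 of the 4 B clones have the 3 lowest ratios, so ratio and prefix move together.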

How the data were processed

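RNA from 9 WTg MPC clones was sequenced with a stranded mRNA kit, 1 library per clone, and all 9 form a single group. The authors deposited log2 values of scaled reads with an offset of 4 for 18049 genes. Per the submitters' processing notes FastQC 0.11.9, STAR 2.7.10, RSEM 1.3.3 and GRCm38 were used. The annotation, the software used for scaling and the counting of strand are not given in the sources used here. The labels name ISOGEN for RNA extraction and the study's methods an RNeasy kit. The table also holds 6 columns of samples of other series, which were used in no step.

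The log2 was undone and 4 subtracted, which gave normalized counts. In each library these were whole multiples of 1 step for 100% of nonzero values under 1000 reads (tolerance 0.1 read), so reads were recovered by division. Depth was 12198036 to 20453901 reads per library. The floor of 3 reads and the exact Poisson intervals at 95% cover counting error only. RSEM estimates need not be whole, so reads here are those implied by the deposited values.

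Levels were compared without a test. For pairs of genes, exact two-sided p-values came from all 362880 ways to pair the clones and were adjusted by Benjamini-Hochberg over 4 relations. Fits across all genes used limma 3.58.1 (lmFit and trended eBayes) on log2 of normalized counts plus 1, genes with a mean of at least 1, and Benjamini-Hochberg over all genes tested, with the 3 prefixes, log2 Mettl3 or the log2 marker ratio as terms. Because the deposited unit is log2, this was used in place of a count model. A plan to adjust the relations with the marker ratio over the members alone was dropped for that fit, in which the marker genes were left out. The scripts were tested on simulated data.

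Named were the 10 members, the 5 other imprinted genes with the highest means (any called in the first 2 fits would have been added), the 2 genes most like each member with a mean of at least 50 (1 of these is not reported here), 5 IGF genes, Mettl3, Xist and Ddx3y. Mirg, Dio3, Rtl1, Rasgrf1, Zim1, Usp29, Airn, Nnat, Nap1l5, Zdbf2 and Kcnq1ot1 were chosen after their values were seen. The members and lists were chosen with earlier results of these data known. Of 18049 identifiers, 18033 matched the gene names given, and positions are those of RefSeq on GRCm38.p6. Promoter windows came from the same source, with an entry for 8 of the 10 members.

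Alternatives were a pseudocount of 0.1, rescaling to the upper quartile, no filter and a filter at a mean of 50, voom on recovered reads, leaving out each library, leaving out the 2 farthest clones and centring within prefixes. Scaling to the total, the marker ratio fit and its alternatives were chosen after seeing the data. By Xist and Ddx3y the B clones came from other mice than the A and C clones, but the number of mice is not stated. Clones of a single mouse may thus have been counted as replicates, and p-values measure the spread between these clones only. Scripts ran on R 4.3.3 and Python 3.11.15 (scipy 1.17.1, pandas 2.3.3, matplotlib 3.10.9, numpy 2.4.6).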

Additional observations from a re-analysis of the deposited data

Results flagged for a closer look

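All genes of the member, other imprinted and IGF lists that had a read, with Mettl3, were checked for a library far from the other 8. Each is given with the gap from the extreme library to the nearest other, divided by the whole range, both in normalized counts. Given are those where this passed Dixon's 95% critical value for 9 libraries. There were 8 such genes of 42. Chance gives about 1 in 20 when values are normally distributed, which those of genes with few reads are not, so the count carries no test. The share of all genes that pass this rule was not counted. Nor was the rule applied on the log2 scale of the fits, where a single high library stands out less, also for Peg3.

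Peg3 was highest in C1, with a gap of 0.728 of its range (1577 normalized counts against 442 in the next library). Among the flagged genes, several other paternally expressed ones were also highest in this clone, but Kcnq1ot1, paternally expressed too, was highest in A. Of the paternally expressed genes not flagged, Igf2 was at 5.17 normalized counts and Mest at 0 in C1. The maternally expressed Zim1 and Grb10 were highest in C1 too. Usp29 had a gap of 0.836 (6 reads in C1), Nnat of 0.878 (32 reads, 41.4 normalized counts against 5.05), Nap1l5 of 0.623 (16 reads) and Zdbf2 of 0.784 (5 reads). H19 was highest in C3, with a gap of 0.619 (25.2 normalized counts against 11.4). Kcnq1ot1 was highest in A, with a gap of 0.688 (304 normalized counts against 176), as was Mettl3, with a gap of 0.911 (2184 against 621). Nnat, Nap1l5, Zdbf2 and Kcnq1ot1 are named here after their values were seen.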

How the results depend on the processing

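No paired analysis was possible because there is only 1 group, WTg. No member was called between prefixes C and B in any of 15 settings, with the smallest member adjusted p between 0.080 and 0.425 (limma), or with Mettl3 in any of 8 (0.422 to 0.619). Leaving out 1 library at a time gave 9 to 242 genes called between prefixes (242 without C3) and 0 to 2210 with the marker ratio, the lowest being 0 without B1 and 9 without C2. With prefix as a term, 0 genes were called with the marker ratio. With Mettl3, 656 genes were called at a pseudocount of 0.1, 238 with a filter at a mean of 50, 72 with voom and 0 without A. The split of these calls moved too, from 55 higher and 362 lower with limma to 44 and 28 with voom. The near-zero r of Igf2 with Igf2r turned to 0.019 at a pseudocount of 0.1, and that of Igf2 with Igf2bp2 turned to -0.204 without A, -0.151 without the 2 farthest clones and -0.286 centred within prefixes. The cause of these shifts was not tested.

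Member by member, 346 of 352 refits across all genes kept their side of the threshold, most of them for results not called in the main fit. The exceptions were Meg3 with the marker ratio, the only member result called there, in 5 of 16 refits, and Igf2r in 1. The sign of the fitted value turned in 22 of the 352, none of them called, among them Dlk1 between prefixes in 5 of 13 (-0.49 to 0.60) and Meg3 with Mettl3 without A (-1.56). At a pseudocount of 0.1 the SD of log2 values was 2.50 for Dlk1 and 2.97 for Mest, against 1.15 and 1.60, and both then exceeded Peg3. Rescaling to the upper quartile moved no library by more than 0.068 on the log2 scale. Depth limits Igf2, H19, Dlk1 and Mest, which had 18 reads or fewer in each library.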
